A study of Mus musculus with 9 samples.

Results

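Meiotic recombination genes encode the machinery that breaks the DNA of spermatocytes and repairs the breaks as crossovers. The 10 genes described here are *Spo11*, *Prdm9*, *Dmc1*, *Meiob*, *Spata22*, *Hfm1*, *Msh4*, *Msh5*, *Rnf212* and *Mlh3*. They were chosen by symbol for double-strand break formation, strand exchange and crossing over. No rule on their values was used, but earlier results of these data were known. Of them, 9 matched 1 of the 23074 gene rows of the count table by Ensembl ID, and all 9 had enough reads to be tested among 15613 genes. *Spata22* was not analysed here. Decapsulated testes of 5 mice that were wild type and 4 that were Rfx2-/- were used for RNA-seq at postnatal days 29 to 30, with 1 library per mouse, and the comparison asked which transcripts depend on RFX2, a transcription factor of the RFX family that binds the X-box motif. Both groups were of a mixed C57BL/6, 129/Sv and FVB/N background. In the Rfx2-/- mice exon 7 of *Rfx2*, which encodes part of the DNA-binding domain, had been removed in every tissue by a Cre driven from the actin promoter.

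In the first meiotic prophase PRDM9, a zinc finger protein with histone methyltransferase activity, marks the positions where the SPO11 complex then cuts both strands of DNA. The ends are resected, and the recombinase DMC1, helped by the single-strand DNA binding proteins MEIOB and SPATA22, carries the strand into the homologous chromosome. HFM1, the MSH4-MSH5 heterodimer and RNF212 act on the joined intermediates that become crossovers, and MLH3 takes part in resolving them. These proteins work in spermatocytes. RFX2 is best known in testis for its role in the spermatids that follow, but the study also stained RFX2 protein in pachytene spermatocytes.

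Rfx2-/- replicate 1 was sequenced to 28800855 counted reads, the other 8 libraries to between 13574764 and 15193330. The *Rfx2* level, in TMM-scaled counts per 1e6 reads (CPM), was 549 ± 54.5 (SD, n = 5) in wild type and 146 ± 59.8 (SD, n = 4) in Rfx2-/-, so that *Rfx2* fell by 1.91 on the log2 scale (SE 0.28; adjusted p = 0.000781 in the quasi-likelihood test of edgeR). All 124 markers of testis cell types had reads in every library. One library, Rfx2-/- replicate 2, stood apart: between Rfx2-/- libraries the biological coefficient of variation reached 0.2997, but 0.179 when that library was left out, and it was 0.134 in wild type. Values without it are given beside those that it moves.

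None of the 9 measured members passed the test for a difference between genotypes, and most had slightly higher levels in Rfx2-/-. Of the 9 measured members, 0 passed an adjusted p of 0.01 with a change over 2-fold in the edgeR quasi-likelihood test, a rule that called 3.68% of all genes lower and 0.826% higher in Rfx2-/-. With the limit at 0.05 for the adjusted p and none on the fold the count was again 0, where 7.31% of all genes were lower and 3.48% higher. DESeq2 and limma-voom with library quality weights also called 0 members by either rule. At an unadjusted p under 0.05, 3 members (*Meiob*, *Rnf212* and *Hfm1*) were on the higher side and 0 on the lower side, beside 13.9% and 13.7% of all genes. That count of 3 was 1 without wild type replicate 5, 6 without wild type replicate 3, 7 with total counts as the scale and 1 after removal of length and GC trends. The fitted log2 fold changes ran from -0.08 for *Msh5* to 0.64 for *Meiob*, with a median of 0.30 (0.25 without Rfx2-/- replicate 2) against 0.03 over all genes tested. They were above 0 for 8 of the 9 members and for 53.1% of all genes. With length and GC trends removed they were above 0 for 6 of the 9 and for 53.2% of all genes.

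The intervals show how large a change these libraries could have missed. The lowest 95% limit among the 9 members was 0.701-fold, for *Msh5*, so that no interval reached down to a 2-fold loss. The upper limit stayed under a doubling for 6 members, with 1.63-fold for *Prdm9* the highest of these, and passed it for *Rnf212* (2.02-fold), *Hfm1* (2.15-fold) and *Meiob* (2.23-fold). In whole testis, more cells of a type and more RNA per cell cannot be told apart.

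**Figure D1:**
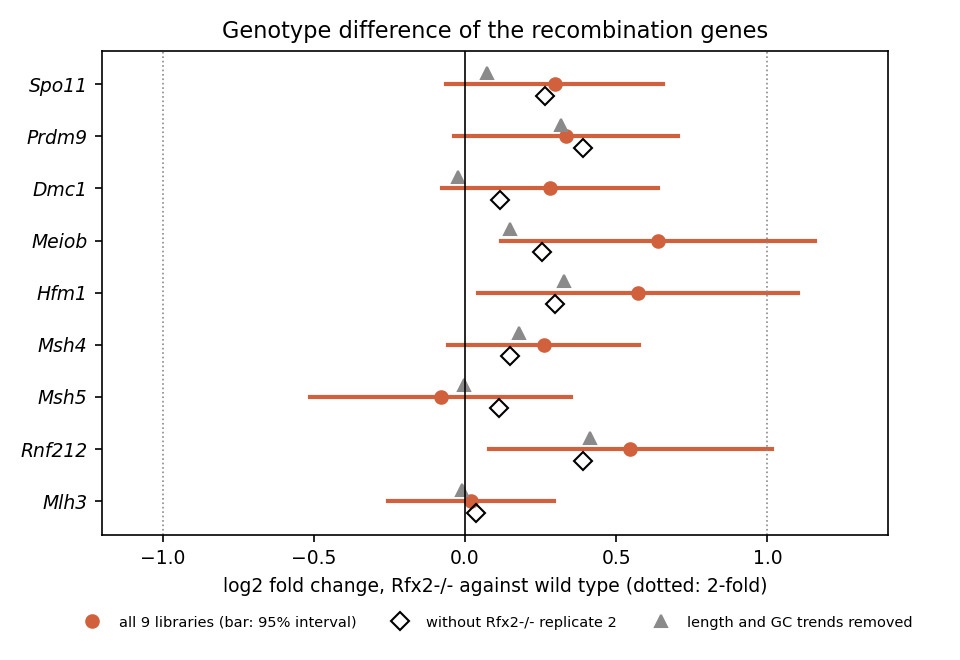
Log2 fold change of each recombination gene in Rfx2-/- against wild type, with its 95% interval as a bar, from the edgeR fit on all 9 libraries. Open diamonds give the value without Rfx2-/- replicate 2 and grey triangles the value after removal of length and GC trends. *Hfm1*, *Meiob* and *Dmc1* move towards 0 in both, and *Msh5* lies at 0.11 without that library.

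The members differed widely in abundance. Per kilobase of merged exons, *Spo11* had the highest wild type level, 31.8 ± 3.17 CPM per kilobase (SD, n = 5), and *Rnf212* the lowest, 1.58 ± 0.221. Between them came *Meiob* (18.5 ± 1.65), *Hfm1* (14.1 ± 2.55), *Mlh3* (11.9 ± 1.31), *Msh5* (11.7 ± 0.451), *Dmc1* (9.66 ± 1.122), *Msh4* (6.18 ± 0.683) and *Prdm9* (2.39 ± 0.265). The wild type ranges of *Meiob* and *Hfm1*, *Hfm1* and *Mlh3*, *Mlh3* and *Msh5*, and *Msh5* and *Dmc1* overlapped, so the order within each of these pairs is not resolved, while the other neighbours in the order did not overlap. The median over 15481 genes with a length was 6.41 CPM per kilobase, so that 3 members (*Msh4*, *Prdm9* and *Rnf212*) lay under the median gene of whole testis. In Rfx2-/- the order was kept except that *Dmc1* (11.7 ± 2.60, n = 4) and *Msh5* (11.02 ± 3.48) changed places, and their ranges overlapped there too. With the exons of all transcripts as length, which raises that of *Spo11* from 1755 to 3921 bases, its level was 14.2 and *Meiob* (18.4) came first, while *Dmc1* (8.80) moved up beside *Mlh3* (8.79) and ahead of *Msh5* (6.16). The authors counted reads over exons of protein coding isoforms, so the longer length can take in bases that were not counted.

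**Figure D2:**
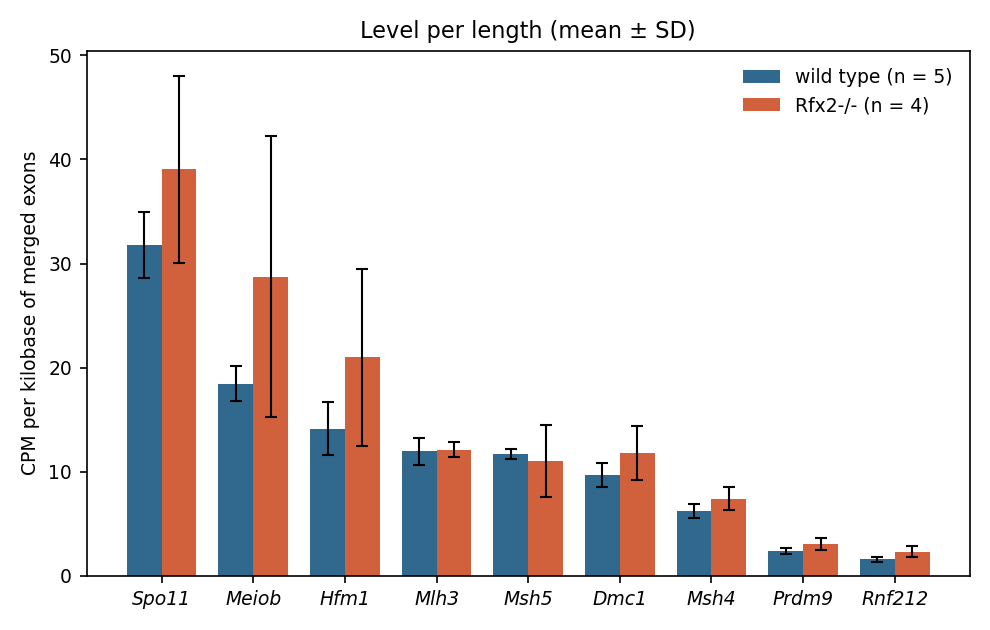
Mean level of each recombination gene per kilobase of merged protein coding exons in wild type (n = 5) and Rfx2-/- (n = 4), with SD as error bars. *Spo11* is highest and *Rnf212* lowest in both genotypes.

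Promoter sequences of RefSeq (GRCm38.p6), from 250 bases before to 50 bases after the transcription start, were at hand for 7 of the 9 members. Those of 3 members are printed, *Msh5* because it is the member to whose promoter the study assigned an RFX2 peak in chromatin immunoprecipitation, and *Prdm9* and *Hfm1* because they share a motif with it. The study assigned peaks over a wider window around the start, so that peak need not lie within the printed bases. Capitals mark CNCCTCAG, on either strand, the motif of STRA8 and MEIOSIN, the factors that start the meiotic programme.
Msh5 (chr17:35046573-35046872, minus strand): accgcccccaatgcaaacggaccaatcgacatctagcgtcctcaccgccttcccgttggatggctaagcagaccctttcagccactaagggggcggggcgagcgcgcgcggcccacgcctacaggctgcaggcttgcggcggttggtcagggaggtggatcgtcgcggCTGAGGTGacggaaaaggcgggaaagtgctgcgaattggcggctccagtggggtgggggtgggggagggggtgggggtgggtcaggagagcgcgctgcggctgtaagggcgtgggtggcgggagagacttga
Prdm9 (chr17:15564305-15564604, minus strand): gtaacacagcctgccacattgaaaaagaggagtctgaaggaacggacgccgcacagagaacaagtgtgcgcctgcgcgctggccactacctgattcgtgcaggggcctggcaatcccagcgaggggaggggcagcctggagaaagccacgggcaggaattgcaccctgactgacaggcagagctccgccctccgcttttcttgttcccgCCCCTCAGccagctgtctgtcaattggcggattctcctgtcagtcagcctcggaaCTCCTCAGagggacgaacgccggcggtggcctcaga
Hfm1 (chr5:106925841-106926140, minus strand): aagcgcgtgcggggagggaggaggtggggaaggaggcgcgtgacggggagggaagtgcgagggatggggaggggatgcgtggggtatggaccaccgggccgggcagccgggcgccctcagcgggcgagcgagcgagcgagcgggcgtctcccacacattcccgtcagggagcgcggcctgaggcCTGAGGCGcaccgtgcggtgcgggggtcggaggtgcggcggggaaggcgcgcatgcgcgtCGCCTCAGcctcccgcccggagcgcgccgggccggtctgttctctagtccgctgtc

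CNCCTCAG was found in these 3 of the 7 members, with 2 matches in *Hfm1* (their first bases at -66 and -6 from the start), 2 in *Prdm9* (-41 and 15) and 1 in *Msh5* (-82), while 7.94% of 32851 promoters hold it. The full X-box inverted repeat, searched on both strands as GTTNCC and GGNAAC with 2 bases between them, was in 0.451% of promoters and in 0 of the 7. The searched bases do not cover the study's whole promoter window, so a repeat outside them would be missed. A single X-box arm, GTTGCC, in 12.5% of promoters, was in *Rnf212* alone, at -212. CNGTTG, a core form of the MYB motif, was in 35% of promoters, in *Msh5* and in a second *Prdm9* promoter of the table (chr17:15563282-15563581) that is not printed and holds no CNCCTCAG, and TGACGTCA, the CREM site, in 1.79% and in 0 of the 7. Shares here are per promoter and counts per member, and a member with several promoters, such as *Prdm9*, has more chances of a match. The motifs were chosen with the matches known, and a match describes letters and not a binding site. In the counts the 3 printed genes did not share a direction: the log2 fold change was -0.08 for *Msh5*, 0.33 for *Prdm9* and 0.57 for *Hfm1*, and 0 of the 3 passed the test.

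For break formation the members are *Spo11*, the catalytic subunit of the break-forming complex, and *Prdm9*. *Spo11* lies at chr2:172977700-172993576 (plus strand) and has 13 merged exons. Its level was 57.0, 51.0, 58.6, 63.0 and 49.5 CPM in wild type replicates 1 to 5 and 65.2, 72.9, 49.1 and 86.9 CPM in Rfx2-/- replicates 1 to 4. Of the Rfx2-/- libraries, 3 lay above the highest wild type library and 1 below the lowest, so the groups overlapped. As a log2 fold change the difference was 0.30 (SE 0.17, edgeR adjusted p = 0.262), 0.27 without Rfx2-/- replicate 2. Both splice forms of the SPO11 mRNA are counted in this one row.

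*Prdm9* (chr17:15543079-15564354, minus strand, 12 merged exons) had 7.57, 8.36, 9.91, 9.81 and 8.97 CPM in wild type and 13.58, 9.96, 12.5 and 8.83 CPM in Rfx2-/-. The groups overlapped through Rfx2-/- replicate 4 alone, and the highest value was that of replicate 1, the most deeply sequenced library. The log2 fold change was 0.33 (SE 0.17, edgeR adjusted p = 0.222), and 0.39 without Rfx2-/- replicate 2. *Prdm9* is also the member whose count is least complete. Its zinc fingers are encoded by a tandem array, and 19.9% of the 50-base windows of its longest coding transcript recur within the gene and 0.762% in other genes, against 0 in the other 8 members. Reads from such windows map to several places and were discarded by the authors, in both genotypes alike, so its count leaves out part of the mRNA.

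**Figure D3:**
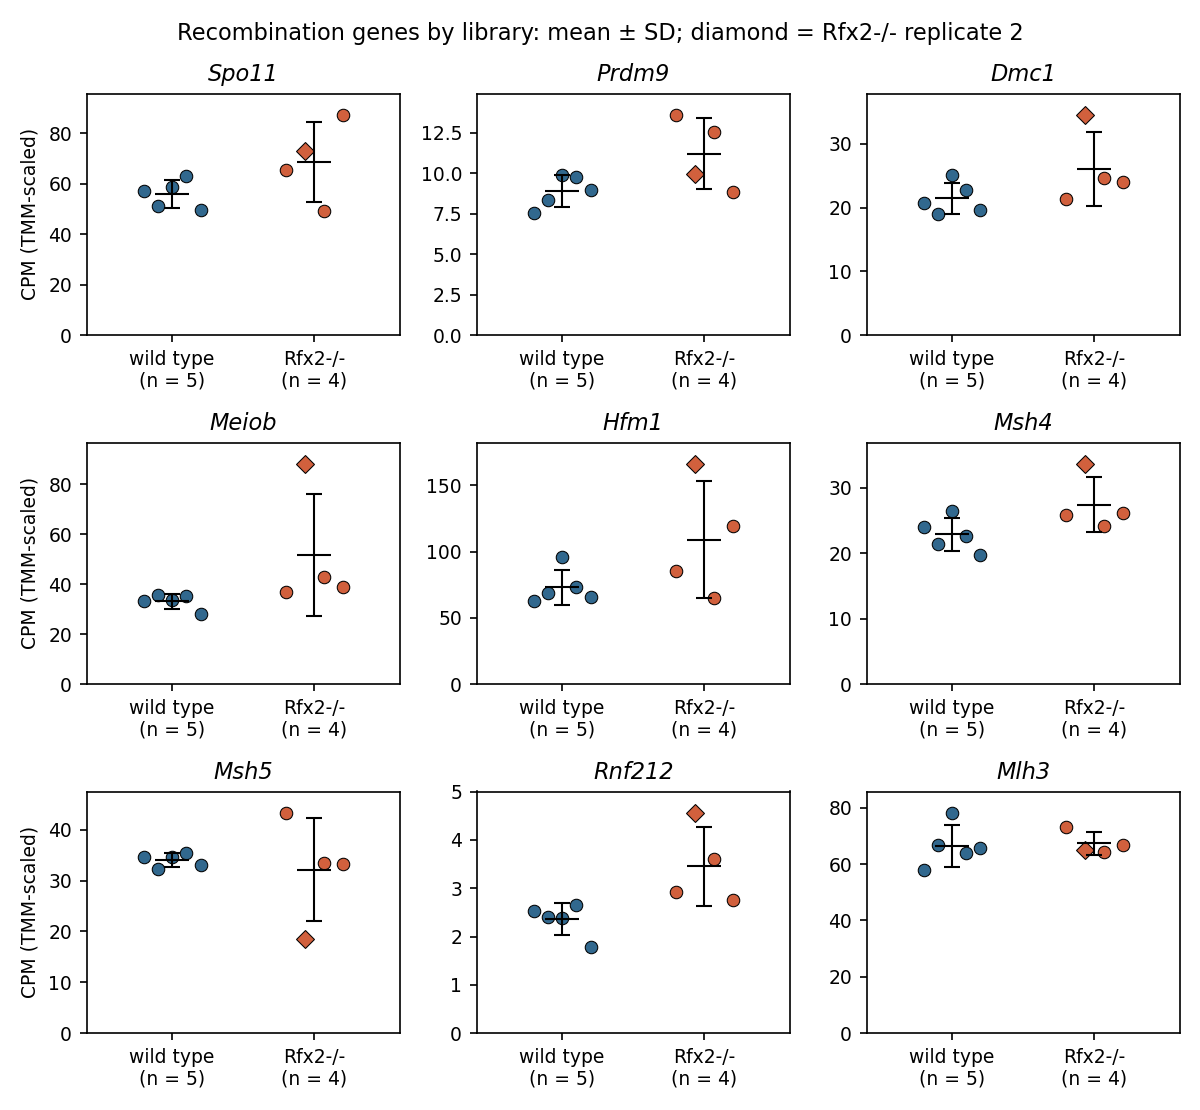
TMM-scaled CPM of the 9 measured recombination genes in each wild type (blue, n = 5) and Rfx2-/- (orange, n = 4) library, with mean and SD. The diamond is Rfx2-/- replicate 2, the highest of the 4 Rfx2-/- libraries for *Dmc1*, *Meiob*, *Hfm1*, *Msh4* and *Rnf212* and the lowest for *Msh5*.

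Strand exchange is represented by *Dmc1*, the meiosis-specific recombinase, and *Meiob*, which coats single-stranded DNA together with SPATA22. *Dmc1* (chr15:79561497-79605109, minus strand) had 20.6, 19.0, 25.1, 22.7 and 19.6 CPM in wild type and 21.3, 34.4, 24.6 and 23.9 CPM in Rfx2-/-. Of the Rfx2-/- libraries, only replicate 2 lay outside the wild type range. Its difference of 0.28 (log2 fold change; SE 0.16, edgeR adjusted p = 0.285) became 0.12 (SE 0.12, adjusted p = 0.582) without that library.

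*Meiob* (chr17:24804289-24839788, plus strand) gave the largest fitted difference of the 9 members. It had 33.3, 35.5, 33.6, 35.2 and 28.1 CPM in wild type and 36.9, 87.9, 43.0 and 38.8 CPM in Rfx2-/-. Each Rfx2-/- library lay above each wild type library, and replicate 2 stood far above the other 8 libraries. Its log2 fold change was 0.64 (SE 0.24, edgeR adjusted p = 0.109), and 0.25 (SE 0.11, adjusted p = 0.151) without replicate 2. It passed an adjusted p of 0.05 in 1 of the 16 alternatives, the one without Rfx2-/- replicate 1 (log2 fold change 0.80, adjusted p = 0.0397).

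*Rnf212*, a RING-finger protein thought to act as a SUMO ligase on crossover intermediates, was the other member whose genotypes did not overlap. It lies at chr5:108729290-108774982 (minus strand) and was the least covered member, with 23 to 88 reads per library. Its level was 2.52, 2.401, 2.39, 2.65 and 1.79 CPM in wild type and 2.92, 4.55, 3.61 and 2.75 CPM in Rfx2-/-. The difference was 0.55 on the log2 scale (SE 0.21, edgeR adjusted p = 0.125), and 0.39 (SE 0.21, adjusted p = 0.238) without replicate 2. Of all genes tested, 6.16% were higher and 9.7% lower in Rfx2-/- without overlap.

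The helicase gene *Hfm1* (chr5:106840192-106926321, minus strand, 41 merged exons) had 62.4, 69.0, 95.7, 73.4 and 65.7 CPM in wild type and 85.5, 165.8, 64.8 and 119.6 CPM in Rfx2-/-. Rfx2-/- replicates 1 and 3 lay within the wild type range, and replicates 2 and 4 above it. Fitted over all libraries the log2 fold change was 0.57 (SE 0.24, edgeR adjusted p = 0.152), and 0.30 (SE 0.19, adjusted p = 0.330) without replicate 2.

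*Msh4* and *Msh5* encode the partners of the MutS gamma clamp, which stabilises crossover intermediates. *Msh4* (chr3:153857149-153906138, minus strand) had 24.1, 21.4, 26.4, 22.7 and 19.8 CPM in wild type and 25.8, 33.6, 24.1 and 26.2 CPM in Rfx2-/-. All Rfx2-/- libraries lay above the wild type mean, and only replicate 2 above the wild type range. The log2 fold change was 0.26 (SE 0.14, edgeR adjusted p = 0.261), and 0.15 without replicate 2.

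*Msh5* (chr17:35028605-35046745, minus strand, 25 merged exons) was the most even member in wild type, with 34.7, 32.3, 34.7, 35.4 and 33.0 CPM, a coefficient of variation of 3.86%. In Rfx2-/- it had 43.2, 18.6, 33.5 and 33.2 CPM. Replicates 3 and 4 lay within the wild type range, replicate 1 above and replicate 2 below it. The difference, -0.08 as a log2 fold change (SE 0.20, edgeR adjusted p = 0.818), turned to 0.11 (SE 0.11, adjusted p = 0.571) without replicate 2.

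*Mlh3* (chr12:85234520-85270599, minus strand), which encodes an endonuclease of crossover resolution, differed least. It had 57.9, 66.7, 77.9, 63.9 and 65.6 CPM in wild type and 73.1, 65.1, 64.2 and 66.8 CPM in Rfx2-/-, each within the wild type range. The difference as a log2 fold change was 0.02 (SE 0.13, edgeR adjusted p = 0.935), with a 95% interval from -0.25 to 0.29.

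Since *Msh4* and *Msh5* work as a pair, the ratio of their mRNAs per kilobase was compared between genotypes. The pair is 1 of 3 that were chosen after the values had been seen, and 2 are not reported here. The ratio was 0.546, 0.521, 0.599, 0.505 and 0.473 in wild type and 0.471, 1.42, 0.566 and 0.621 in Rfx2-/-. Replicate 2 alone had more *Msh4* than *Msh5* mRNA. The log2 difference of 0.40 did not pass an exact two-sided permutation test (p = 0.270, adjusted over the 3 pairs p = 0.365), for which the smallest p that 5 against 4 libraries allow is 0.0159. Without replicate 2 the difference was 0.06 (exact permutation p = 0.607, adjusted p = 0.821).

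Replicate 2 deviated from the other 3 Rfx2-/- libraries in a different direction for different members. The deviation was 1.15 (log2) for *Meiob*, 0.93 for *Hfm1*, 0.57 for *Dmc1*, 0.55 for *Rnf212*, 0.40 for *Msh4*, 0.16 for *Spo11*, -0.06 for *Mlh3*, -0.20 for *Prdm9* and -0.96 for *Msh5*. *Hfm1*, *Meiob* and *Dmc1* have the lowest GC content of the 9 transcripts (39.0, 40.1 and 42.1%) and *Msh5* the highest (55.6%). Across the 9 members the deviation fell with GC content (Pearson's r = -0.84, Spearman's rho = -0.75), a description over genes that share these libraries, and with log10 exon length r was -0.22. Over 88 members and other pathway genes r was -0.37 with GC content and -0.59 with log10 exon length, and over 15481 genes -0.18 and -0.55. With the trend on length alone removed the member median was 0.29, the highest value 0.73, and 3 members had an unadjusted p under 0.05. When smooth trends on length and GC content were both removed from each library, an alternative added after the data had been seen, the log2 fold change was 0.15 for *Meiob*, 0.33 for *Hfm1*, -0.02 for *Dmc1*, 0.41 for *Rnf212* and 0.32 for *Prdm9*, the member median was 0.15, and 0 members passed either rule.

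**Figure D4:**
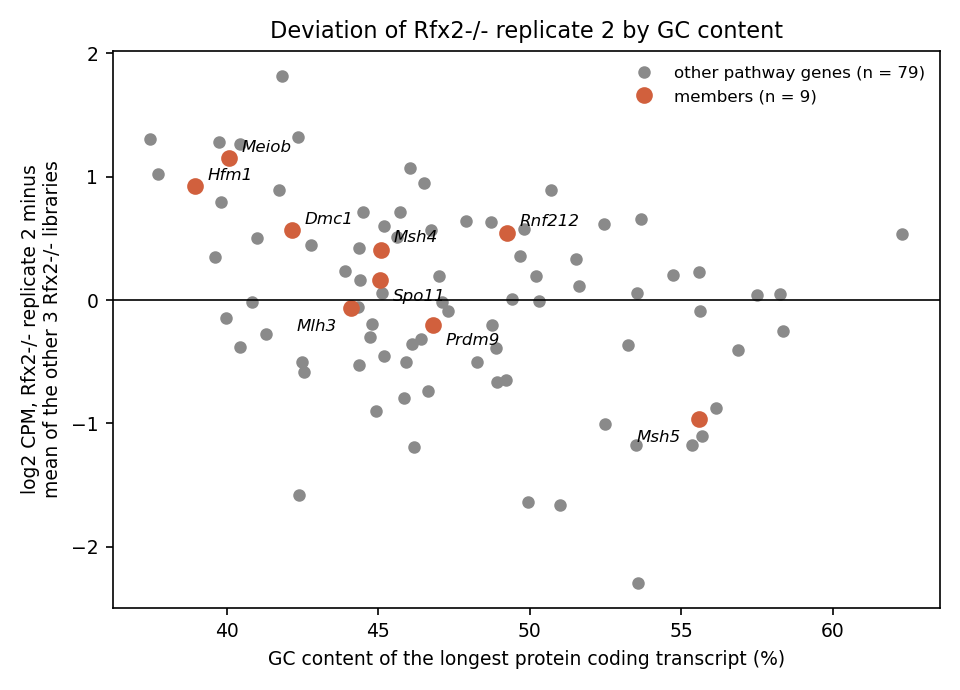
Difference in log2 CPM between Rfx2-/- replicate 2 and the mean of the other 3 Rfx2-/- libraries, against the GC content of each gene's longest protein coding transcript. Members (orange, n = 9) run from *Hfm1* and *Meiob* at low GC and above 0 to *Msh5* at high GC and below 0, and other pathway genes (grey, n = 79) scatter more widely.

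Cell type markers were followed in the same libraries. For each library the median log2 ratio of a list to its wild type mean was taken. For the 9 members it was -0.14 to 0.16 in wild type and 0.23, 0.56, 0.08 and 0.20 in Rfx2-/- replicates 1 to 4. Meiotic prophase markers, such as the synaptonemal complex genes *Sycp1* to *Sycp3*, had a median fold change (log2) of 0.48, with 15 of 17 above 0 and the lowest at -0.56. Of the 17, *Sycp2*, *Smc1b* and *4930447C04Rik* rose and 0 fell at an adjusted p of 0.05 (edgeR), beside 3.48% and 7.31% of all genes. These 3 calls fell to 0 without wild type replicate 1, 2, 3 or 5 and to 1 without wild type replicate 4 or Rfx2-/- replicate 4, and there were 8 without Rfx2-/- replicate 1. The median of the list by library was -0.06 to 0.08 in wild type and 0.19, 0.96, 0.23 and 0.41 in Rfx2-/-. By both medians Rfx2-/- replicate 2 was the highest library, and all Rfx2-/- libraries were above 0. Wild type replicate 3 had the highest member median of its genotype (0.16) and the lowest prophase median (-0.06). For the prophase markers the summed level was 2716 to 3287 CPM in wild type and 3186 to 4815 CPM in Rfx2-/-. With limma-voom the median log2 fold change of these markers was 0.28, with 2 passing higher and 1 lower. Without Rfx2-/- replicate 2 it was 0.27, with 3 passing higher and 1 lower. With the length trend removed it was 0.41, with 4 higher and 1 lower, and with length and GC trends removed 0.17, with 0 of 17 passing. No marker of this list was at 0. The part of prophase cell number in the members' values was not tested.

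Elongating spermatid markers ran the other way, with a median log2 fold change of -0.57. Of these, 5 of 14 were lower at an adjusted p of 0.05 (edgeR), beside 7.31% of all genes. The count of 5 was 1 without Rfx2-/- replicate 4, 2 without Rfx2-/- replicate 3 or wild type replicate 1, 2 or 5, 3 without wild type replicate 4, and 8 without Rfx2-/- replicate 2, with DESeq2 or with limma-voom. The median stayed between -0.67 and -0.47 with each library left out. Wild type replicate 3 resembled the Rfx2-/- libraries in this respect. Its elongating spermatid median was -0.63, within the Rfx2-/- range of -0.70 to -0.37, and the other wild type libraries had -0.05 to 0.34. In that library all 9 members were above their wild type mean, 5 of them at the highest wild type level, with a member median of 0.16, which lies within the Rfx2-/- range of 0.08 to 0.56. In wild type replicate 5, which had the highest elongating spermatid median, 0.34, only 1 of 9 members was above the wild type mean. These are values of single libraries within 1 genotype, and their part in the genotype comparison was not tested.

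The other marker lists had medians from -0.12 to 0.46. As log2 fold changes these were 0.12 for spermatogonia (0 of 14 passing an adjusted p of 0.05), -0.12 for late spermatocytes (1 of 15, lower), 0.30 for round spermatids (1 of 15, higher), 0.20 for Sertoli cells (2 of 14, higher), 0.19 for Leydig cells (0 of 9), -0.01 for peritubular cells (1 of 7, lower), 0.46 for macrophages (0 of 10) and 0.20 for blood and vessel (0 of 8). At the same limit 3.48% of all genes were higher and 7.31% lower. Without Rfx2-/- replicate 2 the medians for spermatogonia (-0.02), Leydig cells (-0.13) and peritubular cells (0.11) changed sign, and that of late spermatocytes was -0.05, of round spermatids 0.15, of Sertoli cells 0.22, of macrophages 0.21 and of blood and vessel 0.15. The passing counts were then 2 lower for late spermatocytes, 1 lower and 1 higher for round spermatids and 1 higher for blood and vessel. Over all 15745 genes tested without that library, 1539 were lower and 777 higher.

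The other genes of the recombination pathway were followed in 4 lists of 79 tested genes, from break formation to resolution (*Ankrd31* was not analysed here). None passed an adjusted p of 0.01 with a change over 2-fold. At an adjusted p of 0.05, 4 of the 79 (5.06%) were higher in Rfx2-/-, beside 3.48% of all genes, and 0 were lower, beside 7.31%. DESeq2 called 5 higher and 0 lower, and limma-voom 3 higher and 2 lower. By list the median log2 fold change was 0.06 for break formation (5 of 10 above 0), 0.02 for end resection and damage signalling (9 of 16), 0.23 for strand exchange (19 of 24) and 0.08 for crossover designation and resolution (19 of 29). Without Rfx2-/- replicate 2 these medians were -0.00064, 0.11, 0.16 and 0.08, with 4 genes higher and 1 lower.

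Among genes acting with the break machinery, *Hells* rose, a chromatin remodeller that opens DNA at PRDM9 sites. It had 48.8, 56.8, 50.1, 56.7 and 51.2 CPM in wild type and 65.0, 148.4, 79.4 and 75.2 CPM in Rfx2-/-, and the genotypes were separate. It rose by 0.80 on the log2 scale (SE 0.22, edgeR adjusted p = 0.0337), and 0.47 (adjusted p = 0.00716) without Rfx2-/- replicate 2. In strand exchange *Psmc3ip*, which encodes the HOP2 partner that helps DMC1 pair DNA, rose by 0.68 (log2 fold change, SE 0.18, edgeR adjusted p = 0.0347), and by 0.52 (adjusted p = 0.0291) without Rfx2-/- replicate 2. It had 110.6 to 150.2 CPM in wild type and 202.4, 281.0, 145.2 and 228.0 CPM in Rfx2-/-, replicate 3 lying within the wild type range. Of its exon bases 29.8% overlap those of *Mlx* on the opposite strand, where reads that overlap exons of different genes were left out.

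In the crossover list *Brip1*, a DNA helicase of the Fanconi anaemia pathway, and *Gen1*, a nuclease that cuts Holliday junctions, rose. *Brip1* had 8.10, 8.75, 9.44, 11.6 and 10.1 CPM in wild type and 17.1, 13.2, 16.5 and 14.6 CPM in Rfx2-/-, without overlap. The rise, 0.68 as a log2 fold change (SE 0.15; edgeR adjusted p = 0.0134), passed an adjusted p of 0.05 under all 16 alternatives, with 0.000587 to 0.0483 as the range, and was 0.75 without replicate 2. *Gen1* had 8.26 to 9.45 CPM in wild type and 13.62, 10.3, 12.3 and 14.5 CPM in Rfx2-/-, and its log2 fold change was 0.52 (SE 0.15; edgeR adjusted p = 0.0417), or 0.61 (adjusted p = 0.00462) without replicate 2. With length and GC trends removed the *Gen1* value was 0.36 (edgeR adjusted p = 0.140). *Hells* passed in 11, *Psmc3ip* in 9 and *Gen1* in 7 of the 16 alternatives, and each of these 3 missed an adjusted p of 0.05 when any single wild type library was left out, with 0.0530 to 0.109 as the range over the 3 genes.

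**Figure D5:**
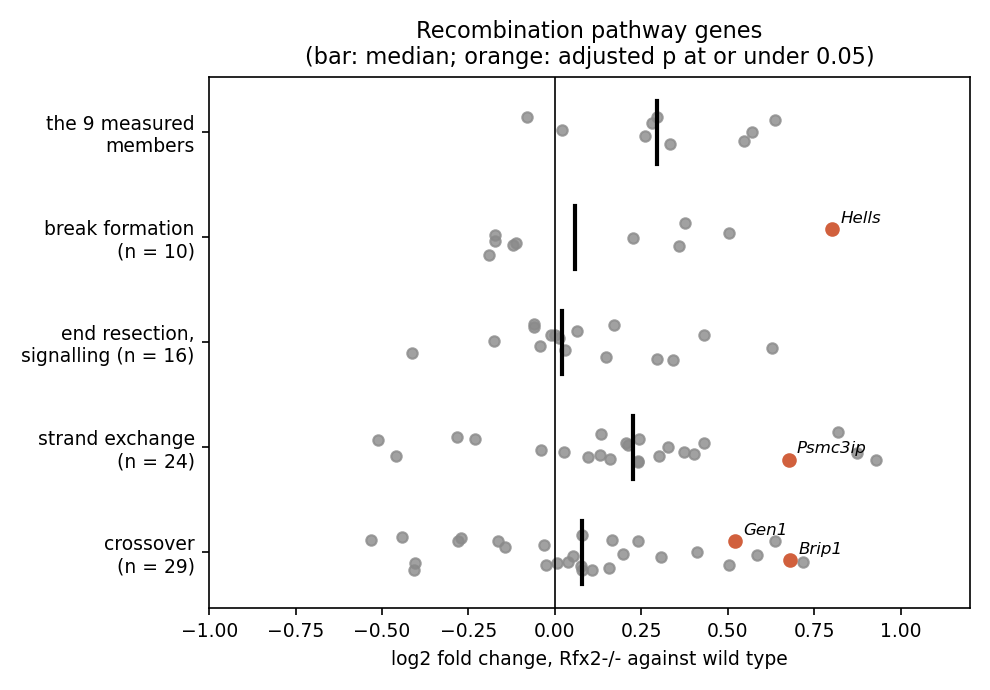
Log2 fold change in Rfx2-/- against wild type of the 9 measured members and of the other recombination pathway genes by list, each point a gene and each black bar a median. *Hells*, *Psmc3ip*, *Gen1* and *Brip1* (orange) passed an adjusted p of 0.05, all on the higher side.

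Of the genes outside the 10 to whose promoters the study assigned an RFX2 peak, *Psmc3ip* is described above, and 3 others did not pass the edgeR test. The repair gene *Brca1* had 32.1 to 42.0 CPM in wild type and 43.0, 16.1, 37.6 and 31.1 CPM in Rfx2-/- (log2 fold change -0.18, SE 0.23, adjusted p = 0.652), and its fold change was 0.04 without replicate 2. *Mus81*, a nuclease of a minor crossover route, had 27.1 to 37.0 CPM in wild type and 22.2, 25.5, 20.3 and 33.0 CPM in Rfx2-/- (log2 fold change -0.40, SE 0.17, adjusted p = 0.151), and it was one of the genes lower with limma-voom (-0.50, adjusted p = 0.0330). *Mcmdc2*, needed for strand invasion in mouse meiosis, had 10.4 to 18.9 CPM in wild type and 11.6 to 16.8 CPM in Rfx2-/- (log2 fold change -0.04, SE 0.20, adjusted p = 0.913), and -0.13 without replicate 2.

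On position, *Prdm9*, *Msh5* and *Meiob* share chromosome 17 with *Rfx2*, at 41.2, 21.7 and 32.0 Mb from it. The exons of the 9 measured members overlapped no exon of another gene in the annotation.

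To see which genes varied most like the members within a genotype, each gene's log2 CPM less its genotype mean was correlated over the 9 libraries with the mean profile of the 9 members. The 5 most alike of the genes with a mean of at least 5 CPM were *Tubgcp5* (Pearson's r = 0.98), *Zmynd19* (0.96), *Rab24* (0.96), *Gpcpd1* (0.95) and *Tardbp* (0.95). The level of each of these was highest in Rfx2-/- replicate 2, for example 48.6 CPM of *Tubgcp5* against 25.4 to 37.2 CPM elsewhere. The members themselves ranged from 0.92 for *Msh4* to -0.56 for *Msh5*, so they did not share a single profile. Each member is part of that mean profile, which raises its own r. Without replicate 2 the 5 most alike were *Rbm39*, *Tardbp*, *Kcnip4*, *Tubgcp5* and *Orc2*, of which 2 were among the first 5. *Msh5*, still part of the profile, then had an r of 0.37, on the side of the other members.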

How the data were processed

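The authors deposited raw read counts per gene, as whole numbers without normalisation. According to their methods and the submitters' processing notes, TruSeq libraries were read as single 50-base reads, mapped to GRCm38 with STAR 2.4 and counted with featureCounts 1.4.6 over merged exons of protein coding isoforms, with reads of several positions or of overlapping genes discarded. A supplement to the methods gives shorter reads and Bowtie for these libraries, which the window length used for *Prdm9* does not follow. Strand use is not given in the sources used here. Gene names came from GENCODE M21, which named 96.6% of the IDs.

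Counts were tested with the edgeR 4.0.16 quasi-likelihood test (R 4.3.3; TMM, filterByExpr, robust fit), genotype as the only factor, with Benjamini-Hochberg adjustment over 15613 genes. CPM are scaled by TMM, and log2 CPM for single libraries uses a prior count of 2. The alternatives were DESeq2 1.42.0, limma 3.58.1 voom with quality weights, other scalings, no filter, trend removal and each library left out. Permutation tests used scipy 1.17.1. The procedure was tested on simulated data, in which no library carried a GC trend. The results of some genes are not reported here. The members and lists were chosen with earlier results of these data known. Named were the members, pathway genes past either rule and those with an RFX2 promoter peak in the study, and the 5 genes most like the members. The labels give no replicate numbers, so replicates were numbered in accession order. Within a genotype the libraries differed by a chi-square of 4.52 per gene or more, so each counted as 1 replicate. Depth is given with the results, and a count of 3, the upper limit when 0 are seen, equals 0.0996 to 0.234 CPM, for counting error only.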

Additional observations from a re-analysis of the deposited data

Results flagged for a closer look

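Of 66 groups of 4 or 5 libraries tested for a single library far from the rest, 3 had one, beside the 3.3 that chance gives at 1 in 20. In 2 of these the library was Rfx2-/- replicate 2. *Meiob* had 87.9 CPM there against 36.9 to 43.0 CPM in the other Rfx2-/- libraries. The *Msh4*/*Msh5* ratio was 1.42 there against 0.471 to 0.621. The other was the Sertoli cell marker median of wild type replicate 3, 0.20 on the log2 scale where the other 4 wild type libraries had -0.07 to 0.01. The groups share libraries, and the ratio was chosen after the values had been seen, so the 3.3 is only a rough guide.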

How the results depend on the processing

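Over the 16 alternatives, 137 of 144 member values kept their direction and their side of an adjusted p of 0.05, 6 changed sign and 1 passed. *Dmc1* was -0.024 and *Mlh3* -0.0101 (log2 fold change) with length and GC trends removed. *Msh5* was 0.0518 with limma-voom and 0.0457 with total counts. With each library left out in turn, *Msh5* ran from -0.23 to 0.11, *Mlh3* from -0.0267 to 0.12 and *Meiob* from 0.25 to 0.80, and 0 to 1 members were higher at an adjusted p of 0.05, the 1 being *Meiob* without Rfx2-/- replicate 1. The pathway genes higher at that limit numbered 7 with total counts and 1 to 7 with libraries left out (1 whichever wild type library was left out, 7 without Rfx2-/- replicate 1), and those lower 2 with limma-voom and 0 to 1 with libraries left out. Over all genes the higher calls at an adjusted p of 0.05 were 544, and 910 with DESeq2, 949 with limma-voom, 1178 with total counts and 276 to 1393 with libraries left out. The lower calls were 1142, and 1803 with limma-voom. With a 2-fold limit the higher calls were 129, and 211 with DESeq2. The elongating spermatid median was -0.75 with the length trend removed, and the macrophage median 0.46, 0.23 with limma-voom, 0.22 with the length trend removed and 0.21 to 0.64 with libraries left out. No paired analysis was possible because the labels give the genotypes no shared replicate numbers. The causes of these shifts were not tested. The depth limits *Rnf212* most, with 23 reads in its lowest library.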
